A study of Mus musculus with 16 samples.

Results

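The complement genes described here are 32 mouse genes, of 54838 in the count table, chosen by name as components, receptors and regulators of the complement cascade and sorted by role. By role, 8 belong to the classical pathway, 5 to the lectin pathway, 4 to the alternative pathway and 3 to the terminal pathway, 6 are receptors or binding proteins and 6 are regulators. Each was followed in 2 preparations of spleen from C57BL/6 mice, a size-selected fraction (8 samples) and whole spleen (8 samples), which share 8 numbers so that each size-selected sample has a whole spleen sample of its number. For the size-selected fraction the spleen was digested with enzymes including Dispase II, treated with EDTA, freed of erythrocytes and poured over a strainer, and what stayed on the strainer was lysed. The labels name this material spleen glia, the support cells that accompany nerve fibres, and the study asked which genes it holds at higher levels than whole spleen. Of the 8 numbers, 4 are from males and 4 from females in each preparation; no age, treatment or genotype beyond the strain is given, and the handling of whole spleen is not described separately. Nothing states that a number is a single animal, so p-values measure the spread between these samples, which may be partly technical.

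Complement is a cascade of plasma and tissue proteins that coats targets with fragments of C3 and can end in a pore in the target membrane. The classical pathway starts when C1q binds and its proteases C1r and C1s cut C4 and C2, the lectin pathway starts when collectins or ficolins bind sugars and the MASP proteases cut the same substrates, and the alternative pathway starts on C3 itself with factors B and D and properdin. Liver makes most of the plasma proteins, while C1q comes mainly from macrophages and dendritic cells. In spleen, complement receptors on B cells and follicular dendritic cells hold antigen coated with C3 fragments.

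Total counts per sample were 13119955 to 19944381 in the size-selected fraction and 12153763 to 16282420 in whole spleen, and levels are given as CPM, counts scaled to a common library size with TMM factors, the median being the middle of the 8 samples. Differences are log2 fold changes of size-selected over whole spleen with their standard error (SE), tested with edgeR's quasi-likelihood test, and a gene was called at a Benjamini-Hochberg adjusted p under 0.05 over the 14510 genes that passed the count filter. The preparations differed in 67.9% of those genes, 37.5% being called higher in the size-selected fraction and 30.4% lower. Of 14 glia markers, 12 passed the filter and all 12 were called higher, the list summing to 105 to 771 CPM against 8.93 to 27.5 CPM in whole spleen, and Sox10 and Foxd3 did not pass it. Markers of other cells were higher too: all 8 fibroblast markers (1075 to 3790 CPM against 5.01 to 59.7 CPM in sum), all 8 endothelial markers (2267 to 6118 CPM against 136 to 488 CPM), all 6 smooth muscle markers (818 to 3836 CPM against 8.69 to 73.4 CPM), all 6 mesothelial markers (21.7 to 199.5 CPM against 0.381 to 3.10 CPM) and all 4 follicular dendritic cell markers (949 to 3736 CPM against 16.7 to 81.5 CPM). Values of 10 complement genes in the size-selected samples (C1ra, C4a, Colec12, Cfp, C7, C1qbp, Serping1, Cd59a, Cr1l and Clu) carry a constant factor below 1 for each sample, as do 3898 genes of the table, while no whole spleen value does; results are given on the deposited values, and without the factor where that changes them. In bulk RNA of this kind, fewer cells of a type and less RNA per cell cannot be told apart.

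Complement genes together held 0.804% ± 0.202 (SD, n = 8) of the counts in the size-selected fraction, with 0.249% ± 0.0480 (SD, n = 8) for whole spleen. Of the 32 genes, 24 passed the count filter, 17 were called higher in the size-selected fraction, 2 were called lower and 5 were not called. The background for those counts is the 37.5% of all tested genes called higher and the 30.4% called lower. With the number as a block 18 were called higher and 2 lower (38.1% and 31.3% of all tested genes), with the constants removed 17 and 1 (37.6% and 30.4%), and with DESeq2 17 and 2 (37.4% and 32%). The median log2 fold change of the 24 was 1.25, against 0.05 for all tested genes. A large difference, called at 3 or more on the log2 scale, was seen in 11 of the 24 and in 11.8% of all tested genes. In these 11, C1ra, C1s1, C2, C4b, Colec11, Colec12, C3, Cfb, Serping1, Cd59a and Clu, the 8 size-selected values lay above all 8 whole spleen values, a separation found in 23.3% of all tested genes. Among them Colec11 was at 0 in 5 of 8 whole spleen samples, so it could hardly have been called lower. The summed fibroblast, endothelial, smooth muscle, mesothelial and follicular dendritic cell markers also did not overlap between the preparations, none of those markers was at 0 throughout either one, and their part in the 11 genes was not tested. The 8 genes below the filter were C4a, Masp1, Masp2, Cfd, Hc, C7, Vsig4 and Cfi.

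**Figure D1:**
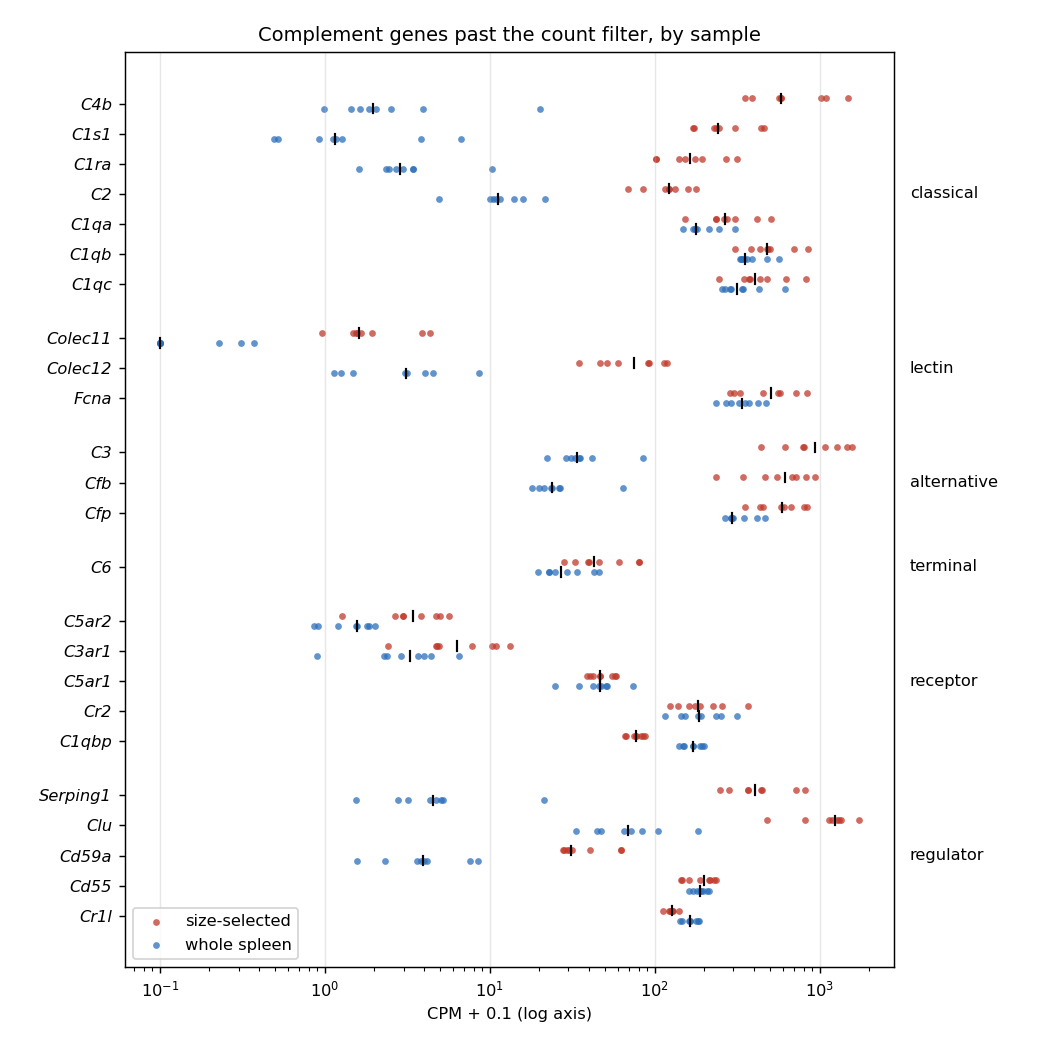
CPM + 0.1 on a log axis for the 24 complement genes past the count filter, grouped by role, with 1 point per sample (8 size-selected in red, 8 whole spleen in blue) and a black tick at each group's median. The groups lie far apart for C4b, C1s1, C1ra and Serping1, and on top of each other for the C1q chains, Fcna, C5ar1, Cr2 and Cd55.

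Reference sequence around the start sites of 6 members is shown to set 3 genes with large fraction differences (C1ra, C1s1 and C3) beside 3 with small ones that are known as macrophage or myeloid products (C1qb, Fcna and Cfp). RefSeq promoters, 250 bases before to 50 after the start on GRCm38.p6, were matched by symbol for 22 of the 32 members; these 6 were picked after their values were seen. Capitals mark matches, on either strand, to 5 motifs searched: TTCNNNGAA for STAT factors, TTGCNNAA for C/EBP, GAGGAA for PU.1, and longer NF-kB and IRF motifs given by name only, with each motif counted on its own where matches overlap. Each sequence runs 5′ to 3′ on the gene's strand.
C1ra, GRCm38.p6 chr6:124512371-124512670, plus strand: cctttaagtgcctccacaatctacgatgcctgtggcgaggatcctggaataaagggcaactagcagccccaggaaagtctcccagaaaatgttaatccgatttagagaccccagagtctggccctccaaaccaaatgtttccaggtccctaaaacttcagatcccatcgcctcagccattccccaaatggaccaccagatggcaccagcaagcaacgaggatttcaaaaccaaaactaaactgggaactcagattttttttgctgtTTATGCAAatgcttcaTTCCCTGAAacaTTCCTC
C1s1, GRCm38.p6 chr6:124542310-124542609, minus strand: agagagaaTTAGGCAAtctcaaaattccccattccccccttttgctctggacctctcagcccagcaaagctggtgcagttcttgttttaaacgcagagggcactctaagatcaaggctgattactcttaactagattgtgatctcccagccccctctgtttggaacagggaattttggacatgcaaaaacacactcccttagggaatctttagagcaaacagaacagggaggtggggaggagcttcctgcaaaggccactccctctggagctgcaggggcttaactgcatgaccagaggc
C3, GRCm38.p6 chr17:57228087-57228386, minus strand: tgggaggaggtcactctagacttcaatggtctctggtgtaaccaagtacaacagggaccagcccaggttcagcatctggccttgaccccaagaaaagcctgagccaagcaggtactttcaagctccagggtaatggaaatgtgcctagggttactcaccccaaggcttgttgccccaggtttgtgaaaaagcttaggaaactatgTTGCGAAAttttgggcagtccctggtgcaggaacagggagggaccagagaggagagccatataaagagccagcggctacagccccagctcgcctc
C1qb, GRCm38.p6 chr4:136886151-136886450, minus strand: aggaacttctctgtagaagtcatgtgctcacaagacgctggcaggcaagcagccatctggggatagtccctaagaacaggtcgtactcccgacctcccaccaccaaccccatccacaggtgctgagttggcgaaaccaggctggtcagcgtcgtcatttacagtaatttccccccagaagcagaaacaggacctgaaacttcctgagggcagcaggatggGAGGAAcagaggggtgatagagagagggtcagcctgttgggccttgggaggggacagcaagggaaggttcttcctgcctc
Fcna, GRCm38.p6 chr2:25627925-25628224, minus strand: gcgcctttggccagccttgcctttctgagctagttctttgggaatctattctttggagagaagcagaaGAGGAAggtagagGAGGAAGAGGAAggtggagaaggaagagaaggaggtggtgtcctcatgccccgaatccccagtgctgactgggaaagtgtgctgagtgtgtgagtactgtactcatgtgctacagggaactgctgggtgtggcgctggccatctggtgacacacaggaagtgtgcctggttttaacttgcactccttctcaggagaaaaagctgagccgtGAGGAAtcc
Cfp, GRCm38.p6 chrX:20931506-20931805, minus strand: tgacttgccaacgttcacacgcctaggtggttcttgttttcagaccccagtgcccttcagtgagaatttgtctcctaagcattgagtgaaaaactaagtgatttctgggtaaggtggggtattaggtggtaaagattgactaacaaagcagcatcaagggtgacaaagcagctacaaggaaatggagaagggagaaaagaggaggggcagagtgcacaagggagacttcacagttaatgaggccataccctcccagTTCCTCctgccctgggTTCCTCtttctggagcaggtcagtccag
The PU.1 letters occurred in 7 of the 22 member promoters and in 28.3% of the 32851 RefSeq promoters of this length. The C/EBP letters were found in 4 of the 22 and in 10.8% of all, the STAT letters in 4 and 8.3%, the IRF motif in 2 and 3.44%, and the NF-kB motif in 1 and 1.63%. In the Fcna window GAGGAA or its reverse complement stands at 4 places, in the Cfp window at 2 and in the C1qb window at 1. C1ra carries a STAT match, a C/EBP match and a PU.1 match, all after its RefSeq start, which lies 216 bases from the start in the GENCODE annotation; C1s1 and C3 each carry 1 C/EBP match. These matches describe letters in a window, and binding was not measured.

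Of the 8 classical pathway genes, 7 passed the filter. In the size-selected fraction 5 were called higher and 0 lower (37.5% and 30.4% of all tested genes), and C1qb and C1qc were not called. C1qa, C1qb and C1qc encode the chains of C1q and lie side by side on the minus strand of chromosome 4 (C1qb 136880129 to 136886187, C1qc 136889804 to 136893065, C1qa 136895917 to 136898803, mm10). C1qa was at 152.5 to 506 CPM in the size-selected samples (median 268) and 148 to 304 CPM in whole spleen (median 178). The ranges overlapped, and the size-selected sample was the higher in 6 of 8 pairs. Its log2 fold change was 0.57 (SE 0.20, edgeR adjusted p = 0.0195), a call lost without the samples numbered 460 (0.50, edgeR adjusted p = 0.0570), and over all alternatives its adjusted p ran from 0.00461 to 0.0570. C1qb was at 308 to 845 CPM (median 481) against 329 to 564 CPM (median 354). Its lowest size-selected value was below every whole spleen value, and in the pairs numbered 435 and 408 the whole spleen sample was the higher. The log2 fold change of C1qb, 0.40 (SE 0.18), was not called (edgeR adjusted p = 0.0582), with a 95% interval from 0.01 to 0.78 before adjustment; with the number as a block it was 0.36 and called (edgeR adjusted p = 0.0275), with the block on restored counts 0.30 and not called (edgeR adjusted p = 0.0516), and without whole spleen sample 427 it was 0.43 (edgeR adjusted p = 0.0461). Over all alternatives its adjusted p ran from 0.0130 to 0.156. C1qc was at 245 to 826 CPM (median 408) against 255 to 615 CPM (median 315). It was not called, at 0.39 (SE 0.22, edgeR adjusted p = 0.125, 95% interval -0.08 to 0.87).

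The share of each chain in the C1q signal is given as a description, and it depends on the exon length used for each gene. Per kilobase of exon, C1qb made up 47.8% ± 2.13 (SD, n = 8) of the C1q signal in the size-selected fraction, with 49.3% ± 2.14 (SD, n = 8) for whole spleen, C1qa 28.5% ± 1.57 and 26.2% ± 0.992, and C1qc 23.8% ± 1.27 and 24.4% ± 2.06. The C1qa share was the higher in the size-selected sample in 8 of 8 pairs, the C1qb share in 2 and the C1qc share in 4. Of 12 macrophage markers, 8 were called higher in the size-selected fraction and 0 lower; they summed to 3987 to 9425 CPM there and 2028 to 4092 CPM in whole spleen, and none was at 0. Their part in the C1q values was not tested. Size-selected samples 427 and 460 had the most C1qb, at 845 and 697 CPM, and also the highest macrophage sums. In whole spleen C1qb was highest in sample 435 (564 CPM, with 478.5 CPM in 427) and the macrophage sum in 427 (4092 CPM, with 3121 CPM in 435).

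C1ra and C1s1, which encode the proteases of the C1 complex, were among the most different genes of the set. C1ra was at 101 to 316 CPM in the size-selected samples (median 163) and 1.50 to 10.3 CPM in whole spleen (median 2.74). Every size-selected value was above every whole spleen value, by 5.68 in log2 fold change (SE 0.38, edgeR adjusted p = 5.5e-10), about 51.2-fold. C1s1 was at 170 to 458 CPM (median 241) against 0.392 to 6.61 CPM (median 1.05). Again the groups did not overlap, and the fold change was larger, 7.24 on the log2 scale (SE 0.51, edgeR adjusted p = 9.1e-10) and 7.83 without whole spleen sample 427. Genes on the opposite strand overlap exons of C1s1 (Gm16567), C2 (Zbtb12), Fcna (Fcnaos), Masp2 (Tardbp), Hc (Gm13449) and Cd55 (Gm16083), and whether counting used strand is not given in the sources used here, so reads from the overlaps cannot be told apart. Per kilobase, C1ra stood below C1s1 in all 8 size-selected samples (mean log2 ratio -0.59 ± 0.14, SD) and above it on average in whole spleen (1.40 ± 0.87, SD, n = 8), where C1s1 rested on 6 to 81 counts. The close copies C1rb and C1s2 had at most 11 and 6 counts, so little of either signal was assigned to them.

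C4b and C2 encode the substrates that C1s cuts to build the classical C3 convertase. C4b had the largest fitted fold change of the 24 tested members. It was at 351 to 1482 CPM (median 582) in the size-selected samples and 0.893 to 20.1 CPM (median 1.85) in whole spleen. The groups did not overlap, and the highest whole spleen value, in sample 427, stood well above the next, 3.81 CPM in sample 436. The log2 fold change was 7.51 (SE 0.66, edgeR adjusted p = 1.2e-08), 8.59 without whole spleen sample 427 and 8.15 with limma-voom. C4a, a close copy of C4b annotated as a processed transcript on chromosome 17 (34809092 to 34823464), did not pass the filter. It had 1 to 8 counts in the size-selected fraction and 0 to 2 in whole spleen, which is 0.0102% to 0.0655% of the counts of the pair in the size-selected fraction and 0% to 9.30% in whole spleen, where C4b itself was low. How counts were shared between the copies cannot be read from the table. C2 was at 69.1 to 177 CPM (median 122) against 4.82 to 21.6 CPM (median 11.1), with no overlap and a log2 difference of 3.31 (SE 0.25, edgeR adjusted p = 2.1e-09). A read-through gene that shares exons with C2 and Cfb, Gm20547, was given 0 to 8 counts in the size-selected fraction and 0 in whole spleen.

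**Figure D2:**
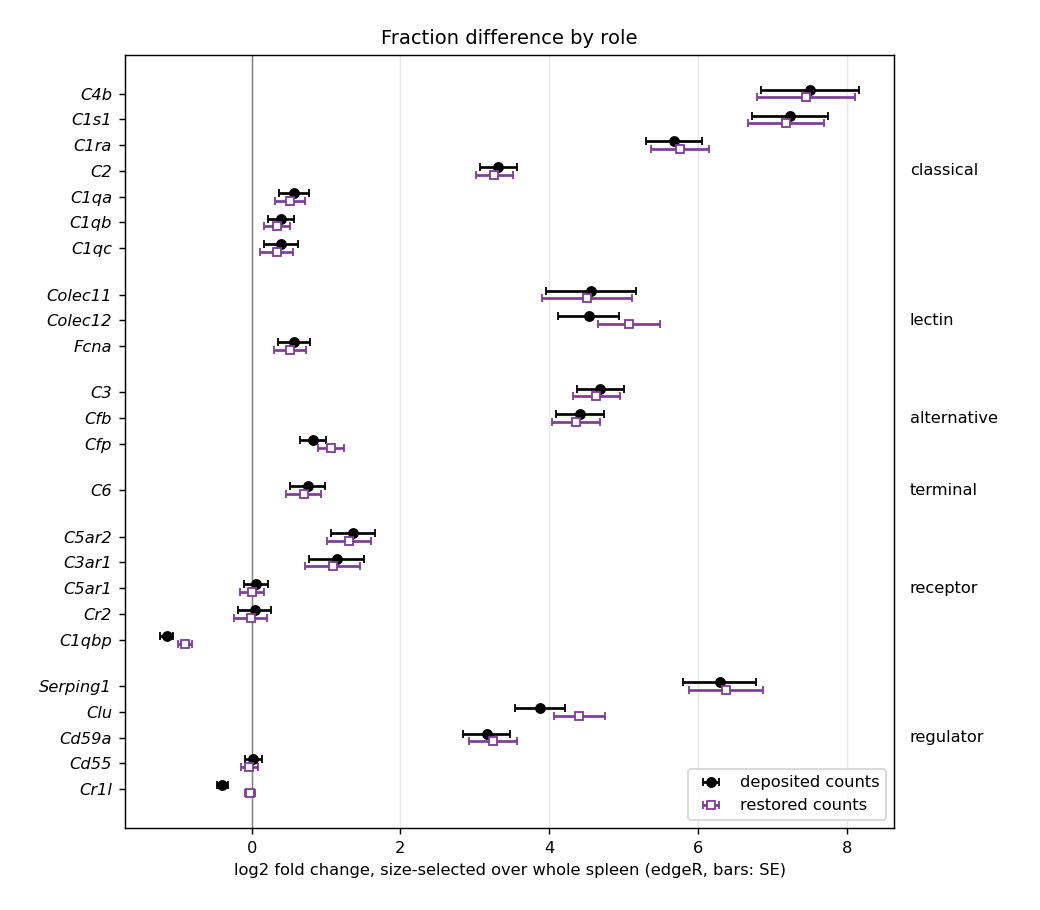
Log2 fold change of size-selected over whole spleen for the 24 tested members by role, from the deposited counts (black circles) and after dividing size-selected values by the constants found in them (open squares), with bars for 1 SE. C4b, C1s1 and Serping1 lie above 6, the C1q chains between 0.39 and 0.57, and Cr1l moves from -0.39 to -0.02 with the constants removed.

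In the lectin pathway 3 of 5 genes passed the filter and all 3 were called higher, against 37.5% of all tested genes. Fcna, ficolin A, a recognition protein made by macrophages, was at 284 to 838 CPM (median 508) against 234 to 470 CPM (median 338). Its ranges overlapped, 7 of 8 pairs were higher in the size-selected sample, and the log2 fold change was 0.57 (SE 0.21, edgeR adjusted p = 0.0256). The call was lost without the samples numbered 445, 447 or 460 (edgeR adjusted p = 0.0570, 0.0581 and 0.0778), and over all alternatives its adjusted p ran from 0.00470 to 0.0778. Per kilobase Fcna had medians of 369 and 246 CPM per kb, second to C1qb in both preparations; with the constants removed it ranked 4 in the size-selected fraction.

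Both collectins past the filter were called higher by more than 4 on the log2 scale. Colec12, a membrane-bound scavenger-type collectin, was at 34.5 to 118 CPM (median 74.9) against 1.04 to 8.49 CPM (median 3.0). The groups did not overlap, at a log2 difference of 4.53 (SE 0.41, edgeR adjusted p = 1.6e-08), or 5.07 with the constants removed. Colec11, a soluble collectin that can carry MASP proteases, was at 0.856 to 4.22 CPM (median 1.52) in the size-selected samples and at 0 in 5 of 8 whole spleen samples, with at most 4 counts in the other 3. Its log2 difference of 4.56 (SE 0.61, edgeR adjusted p = 2.5e-06) rests on those few counts and was 5.17 without the pair numbered 445. Colec11 passed the filter through its size-selected counts (13 to 70), so it could hardly have been called lower. Masp1 and Masp2 encode the lectin pathway proteases, and neither passed the filter. Masp1 had 3 to 64 counts in the size-selected samples, with 64 in sample 427 and 53 in sample 436 and at most 14 elsewhere, and 0 to 3 in whole spleen. Masp2 had 0 counts in all 16 samples, where 3 counts, the limit a count of 0 allows, correspond to 0.144 to 0.244 CPM.

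All 3 alternative pathway genes past the filter were called higher, against 37.5% of all tested genes. C3, on which all pathways converge, was at 439 to 1562 CPM (median 937) against 22.0 to 84.7 CPM (median 33.8). No values overlapped, and the highest whole spleen value, in sample 427, was still far below the lowest size-selected one. The log2 fold change was 4.69 (SE 0.32, edgeR adjusted p = 6.4e-10). Cfb, factor B, the protease of the alternative C3 convertase, was at 234 to 936 CPM (median 614) against 17.9 to 63.9 CPM (median 23.7). It too was apart in all samples, with a log2 difference of 4.42 (SE 0.32, edgeR adjusted p = 1.4e-09). Per kilobase of merged exon, the mean log2 ratio of C3 over Cfb was -0.10 ± 0.46 (SD, n = 8) in the size-selected fraction. For whole spleen it was -0.38 ± 0.21 (SD, n = 8), and both ratios depend on the lengths used.

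The other 2 alternative pathway genes are Cfp and Cfd. Cfp, properdin, which stabilises the alternative convertase and is known from myeloid cells, was at 352 to 840 CPM (median 591) against 265 to 468 CPM (median 295). The ranges overlapped, at a log2 difference of 0.83 (SE 0.17, edgeR adjusted p = 0.00035), or 1.07 with the constants removed. On the deposited values 1 pair of 8, number 435, went the other way (452 against 468 CPM). Its size-selected value carries a constant of 0.814, and with the constants removed this pair was not reversed. Cfd, the adipocyte-rich protease that cuts factor B, did not pass the filter: it had 74, 31 and 14 counts in size-selected samples 435, 436 and 427 and at most 4 in the other 5, and 0 to 6 in whole spleen. Of 6 adipocyte markers only Fabp4 passed the filter; Plin1, Cidec and Lep were at 0 in all whole spleen samples, and Fabp4, which endothelial cells also express, made up nearly all of their sum, at 11.2 to 107 CPM in the size-selected samples and 7.02 to 18.9 CPM in whole spleen. The part of these markers in the Cfd counts was not tested.

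Of the 3 terminal pathway genes C6 passed the filter and was called higher. C6, a component of the membrane attack complex, was at 28.2 to 80.1 CPM (median 42.9) against 19.4 to 45.9 CPM (median 26.9). It was higher in the size-selected sample in 7 of 8 pairs, with overlapping ranges, and its log2 fold change was 0.75 (SE 0.23, edgeR adjusted p = 0.00827). Its neighbour on chromosome 15, C7, which joins C6 in the complex, had 5 to 198 counts in the size-selected fraction and 0 to 6 in whole spleen, and did not pass the filter. With no filter 5 of the 8 genes below it were called higher in edgeR. That fit called 7157 genes of the table higher and 5136 lower, 58.2% of its calls being higher. C7 was at 4.20 on the log2 scale (edgeR adjusted p = 0.00017), Masp1 at 4.86 (edgeR adjusted p = 8.6e-05) and Cfd at 2.91 (edgeR adjusted p = 0.0304). C4a was at 2.56 (edgeR adjusted p = 0.00536). Cfi was called too (edgeR adjusted p = 0.0105), but no fold is given because it was at 0 in all whole spleen samples. None of the 5 had more than 6 counts in a whole spleen sample, so a call in the other direction was hardly possible. Hc, the gene of C5, had at most 10 counts in any sample and was at 0 in 6 of 8 size-selected and 4 of 8 whole spleen samples. None of 7 hepatocyte markers passed the filter, and 6 of them were at 0 in every whole spleen sample. In the size-selected samples Apob and Fgb were at 0 throughout and the 7 summed to 0.336 to 3.87 CPM, Serpina1a being the highest (median 1.39 CPM).

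**Figure D3:**
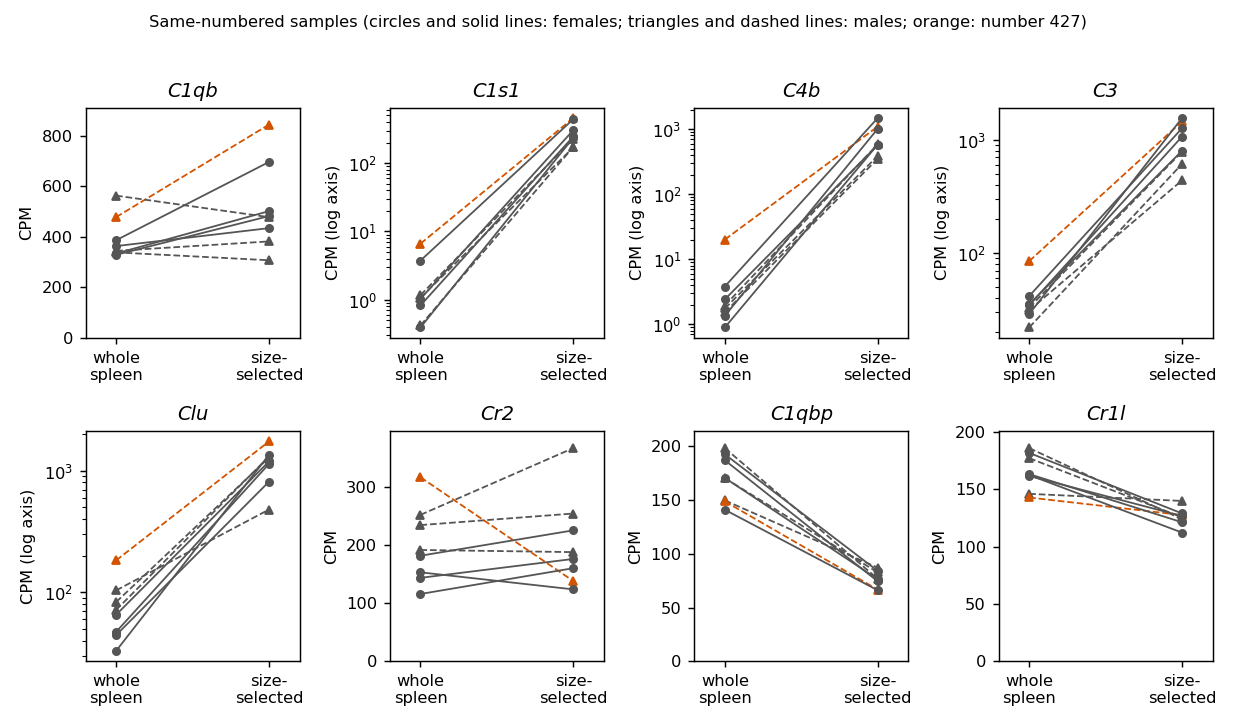
CPM of 8 complement genes in the 8 pairs of same-numbered samples, with a line from whole spleen to size-selected for each number (circles and solid lines for females, triangles and dashed lines for males, orange for number 427); panels for C1s1, C4b, C3 and Clu have log axes. Lines for C1s1, C4b, C3 and Clu all rise, those for C1qbp and Cr1l all fall, and those for C1qb and Cr2 go both ways.

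Of the 5 receptor and binding protein genes past the filter, 2 were called higher, 1 lower and 2 were not called. Of all tested genes 37.5% were called higher and 30.4% lower. C3ar1, the receptor for C3a, was at 2.33 to 13.1 CPM (median 6.26) against 0.791 to 6.38 CPM (median 3.20). All 8 pairs were higher in the size-selected sample, as in 31.3% of all tested genes, although the ranges overlapped. The log2 fold change was 1.15 (SE 0.37, edgeR adjusted p = 0.0105). The 2 receptors for C5a are neighbours on chromosome 7. C5ar2 was at 1.18 to 5.59 CPM (median 3.32) against 0.763 to 1.92 CPM (median 1.46), higher in all 8 pairs although the ranges overlapped, with a log2 difference of 1.36 (SE 0.30, edgeR adjusted p = 0.000521). C5ar1, the signalling receptor, was at 38.8 to 57.9 CPM (median 46.6) against 24.6 to 73.5 CPM (median 46.5). Its pairs were split 4 to 4, and it was not called (log2 fold change 0.06, SE 0.17, edgeR adjusted p = 0.772), with a 95% interval from -0.30 to 0.41. The difference between the fold changes of C5ar1 and C5ar2 was not tested.

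Cr2, which in mice encodes both complement receptors CD21 and CD35 of B cells and follicular dendritic cells, was at 124 to 366 CPM (median 182) in the size-selected samples and 116 to 316 CPM (median 186) in whole spleen. Its ranges overlapped and the pairs were split 5 to 3. It was not called, at 0.04 (SE 0.22, edgeR adjusted p = 0.884), with a 95% interval from -0.44 to 0.52. Markers of its 2 known cell types moved in opposite directions: 7 of 8 B cell markers were called lower in the size-selected fraction and 0 higher (1077 to 3767 CPM in sum against 6118 to 7555 CPM), while all 4 follicular dendritic cell markers were called higher, among them Cxcl13 (130.8 to 620 CPM against 2.47 to 15.8 CPM). No marker of either list was at 0 throughout, and their part in the level of Cr2 was not tested. Vsig4, a macrophage receptor for C3b, had 0 to 24 counts in the size-selected fraction and 0 to 11 in whole spleen and did not pass the filter.

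C1qbp, a mostly mitochondrial protein named for binding C1q, was the one gene of this class called lower. It was at 66.2 to 87.3 CPM (median 76.7) against 141 to 198 CPM (median 171). Each size-selected value was below each whole spleen value, a separation in this direction seen in 11.6% of all tested genes. The log2 fold change was -1.14 (SE 0.09, edgeR adjusted p = 3.8e-09), and -0.90 after the constants were removed.

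**Figure D4:**
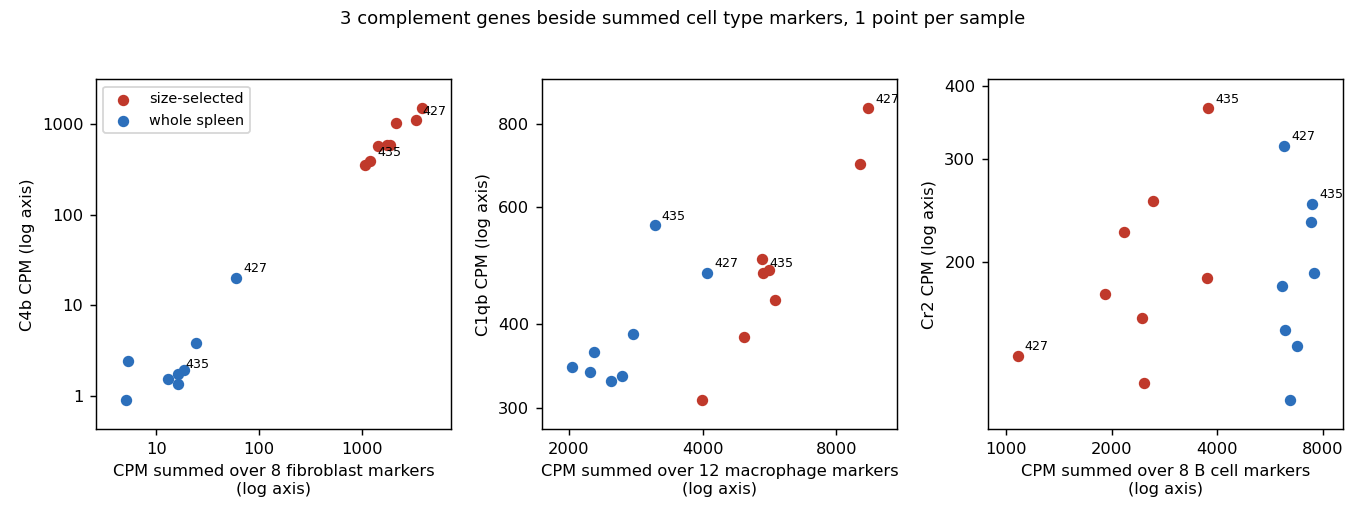
CPM of C4b, C1qb and Cr2 against the summed CPM of 8 fibroblast, 12 macrophage and 8 B cell markers, on log axes with 1 point per sample (size-selected in red, whole spleen in blue) and the samples numbered 427 and 435 marked. Both C4b and the fibroblast sum separate the preparations, with whole spleen sample 427 between them at 20.1 and 59.7 CPM, while C1qb and Cr2 overlap.

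Of the 6 regulators, 5 passed the filter. Serping1, Clu and Cd59a were called higher and Cr1l lower, against 37.5% and 30.4% of all tested genes, and Cd55 was not called. Serping1, the C1 inhibitor that shuts down C1r and C1s, was at 248 to 810 CPM (median 405) against 1.44 to 21.1 CPM (median 4.45). The groups were apart, at a log2 difference of 6.30 (SE 0.49, edgeR adjusted p = 3.0e-09), which was 6.94 without whole spleen sample 427. Per kilobase, Serping1 exceeded C1s1 in all 16 samples, by a mean log2 ratio of 1.11 ± 0.15 (SD, n = 8) in the size-selected samples. Clu, clusterin, a secreted chaperone that blocks the membrane attack complex, was at 479 to 1739 CPM (median 1235) against 33.0 to 183 CPM (median 68.6). It did not overlap, and its log2 fold change was 3.88 (SE 0.34, edgeR adjusted p = 1.1e-08), or 4.41 with the constants removed. Cfi, factor I, the plasma protease that degrades C3b, had at most 3 counts in any size-selected sample and 0 in all whole spleen samples, so no fold is given.

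Cd59a, which blocks pore formation, was at 27.5 to 62.3 CPM (median 30.8) against 1.48 to 8.41 CPM (median 3.83). With no overlap, its log2 fold change was 3.16 (SE 0.32, edgeR adjusted p = 6.5e-08); its copy Cd59b held 5.01% ± 1.30 (SD, n = 8) of the counts of the pair in the size-selected fraction, with 13.3% ± 3.71 (SD, n = 8) for whole spleen. Cd55, which speeds the decay of C3 convertases, was at 143 to 236 CPM (median 199.9) against 161 to 214 CPM (median 189). Its pairs were split 4 to 4 and it was not called (0.02, SE 0.11, edgeR adjusted p = 0.863, 95% interval -0.22 to 0.26). Cr1l, the gene of Crry, the broadly expressed rodent inhibitor of C3 convertases and the neighbour of Cr2 on chromosome 1, was at 112 to 140 CPM (median 126) against 143 to 186 CPM (median 163). All 8 pairs were lower in the size-selected sample without overlap, and it was called lower at -0.39 (SE 0.07, edgeR adjusted p = 0.00011). That call was lost when the constants that multiply its size-selected values were removed, with a log2 fold change of -0.02 (edgeR adjusted p = 0.8), and over all alternatives its adjusted p ran from 2.1e-07 to 0.857.

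Other genes of the complement system, from a list of 32 kept apart from the members, were followed in the same fit. Of these, 13 passed the filter, 8 were called higher and 2 lower, against the 37.5% and 30.4% of all tested genes. Thbd, thrombomodulin, an endothelial regulator of coagulation and complement, was at 130 to 321 CPM against 3.98 to 16.4 CPM (log2 difference 4.81, SE 0.28, edgeR adjusted p = 1.8e-10). The groups did not overlap. Cd93, an endothelial and myeloid surface protein once described as a C1q receptor, differed by 2.37 (SE 0.19, edgeR adjusted p = 3.7e-09), and Itgam, the alpha chain of complement receptor 3, by 1.28 (SE 0.15, edgeR adjusted p = 3.9e-07). Calr, calreticulin, which binds C1q, was lower at -0.50 (SE 0.11, edgeR adjusted p = 0.000532), a call lost without its constants (-0.13, edgeR adjusted p = 0.329). Itgb2 and Itgax, the other integrin chains of the complement receptors, were not called (-0.09 and -0.04). The liver genes C8b, C9, Mbl1 and Mbl2 had 0 counts in all 16 samples.

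Ordered by level per kilobase of exon, the complement genes of whole spleen were led by C1qb, Fcna, C1qa, Cfp and C1qc, with medians from 326 down to 163 CPM per kb, and C1qbp followed at 60.4. In the size-selected fraction C1qb and Fcna still led (442 and 369 CPM per kb), with Clu next at 359 and Cfp at 341, and C1qa, Cfb, C1qc, C3 and Serping1 came next between 257 and 174. Neighbours in these orders, on the deposited values, overlapped in their ranges, except C1qc with C1qbp and C1qbp with Cd55 in whole spleen, and Cd59a with Cr1l and Colec12 with C3ar1 in the size-selected fraction. With the constants removed, which Clu, Cfp and Serping1 carry, Clu led the size-selected fraction at 481 CPM per kb, before C1qb (418), Cfp (396) and Fcna (347.5). Clu ranked 9 in whole spleen, Cfb 12, C3 14, Serping1 17 and C4b 23.

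The order of samples was compared for the 11 genes with large differences. Size-selected samples 427 and 436 had the highest C1ra, C1s1 (458 and 442 CPM), C4b, Colec11, Colec12, Serping1 and Cd59a values. The order was another for C2, where sample 460 followed 427 (159 and 177 CPM), for C3, which was highest in sample 460 (1562 CPM), for Cfb, where sample 407 came second and 436 sixth, and for Clu, where samples 460 and 408 followed 427 (1350 and 1308 CPM). Samples 408 and 435 had the lowest C1ra, C1s1 (170 and 173 CPM), C2, C4b, C3, Cfb and Serping1 values, and sample 435 the lowest Colec12 and Clu values, while Cd59a was lowest in sample 447 (27.5 CPM) and Colec11 in sample 407 (0.856 CPM). In whole spleen, sample 427 was the highest of 8 for C1ra, C1s1, C2, C4b, Colec12, C3, Cfb, Serping1 and Clu, but not for Cd59a, which was highest in sample 435 (8.41 CPM, with 7.51 CPM in 427), nor for Colec11, which was at 0 in sample 427 and highest in 445. The summed fibroblast markers were also highest in size-selected samples 436 and 427 (3790 and 3317 CPM), lowest in 408 and 435 (1075 and 1198 CPM), and highest of the whole spleens in sample 427 (59.7 CPM). Whole spleen sample 427 also had the highest macrophage (4092 CPM), follicular dendritic cell (81.5 CPM) and mesothelial (3.10 CPM) sums, and size-selected sample 427 the highest macrophage (9425 CPM) and follicular dendritic cell (3736 CPM) sums. The follicular dendritic cell sum was also lowest in size-selected samples 435 and 408 (949 and 1441 CPM), and the macrophage sum in 408 and 407 (3987 and 4955 CPM). Endothelial and smooth muscle sums were not ordered by sample. The part of any of these markers in these orders was not tested.

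Sex was compared within each preparation, 4 females against 4 males. In whole spleen 0 of 23 members tested were called by edgeR (0.194% of all tested genes were), and 6 had an unadjusted p under 0.05, as had 16.1% of all tested genes. Of the 23, 18 were lower in females, against 51.2% of all tested genes. The smallest p-values belonged to Cr2 and Clu. Cr2 was at 116 to 182 CPM in the 4 females and 191 to 316 CPM in the 4 males, which did not overlap (log2 fold change of females over males -0.75, SE 0.17, edgeR adjusted p = 0.0749). Clu was at 33.0 to 65.4 CPM in females and 71.7 to 183 CPM in males (-1.22, SE 0.28, edgeR adjusted p = 0.0759), also without overlap. With DESeq2, Cr2, Serping1 and Clu were called (DESeq2 adjusted p = 0.00165, 0.024 and 0.0281), as were 3.89% of all tested genes. Sample 427, the highest whole spleen for many members, is a male: Serping1 was at 21.1 CPM in it, at 4.65 to 5.11 CPM in the other 3 males and at 1.44 to 4.24 CPM in the 4 females. Without the samples numbered 427 the difference of Serping1 was -0.78 (SE 0.35, edgeR adjusted p = 0.226), against -1.66 with them, Cr2 was at -0.60 (SE 0.15, edgeR adjusted p = 0.0559) and Clu at -0.86 (SE 0.20, edgeR adjusted p = 0.0492); 16 of 23 members were then lower in females, as were 49.4% of all tested genes. Follicular dendritic cell markers summed to 29.8 to 81.5 CPM in male and 16.7 to 40.2 CPM in female whole spleens, fibroblast markers to 12.9 to 59.7 CPM and 5.01 to 24.0 CPM, and B cell markers to 6214 to 7555 CPM (median 7452) and 6118 to 6775 CPM (median 6375); their part in the sex differences was not tested.

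In the size-selected fraction 0 of 26 members were called for sex by edgeR and 1 had an unadjusted p under 0.05, where 0.0397% and 4.18% of all tested genes did. That gene was C7, at 0.366 to 2.77 CPM in females and 1.31 to 14.2 CPM in males (-2.33, SE 0.75, edgeR adjusted p = 0.999). Its whole spleen counts were 0 in all 4 females and 3 to 6 in the 4 males. Cr2 came next, at -0.50 (SE 0.31, edgeR adjusted p = 0.999). The fraction difference itself was compared between the sexes by an interaction, in which 0 of 26 members were called by edgeR and 4 had an unadjusted p under 0.05, as had 4.72% of all tested genes; with the number as a block 0 were called and 8 had an unadjusted p under 0.05, against 5.93% of all tested genes. Serping1 (1.74, SE 0.70) and Clu (1.12, SE 0.48) had the smallest p-values without the block, both with an adjusted p of 1.00; with it Serping1 was at 1.60 (SE 0.29, edgeR adjusted p = 0.358) and Clu at 1.17 (SE 0.41, edgeR adjusted p = 0.703). In the size-selected fraction and in the interaction, DESeq2 and limma-voom called 0 members too.

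The authors' deposited table, which holds 2201 genes, contains 12 of the 32 members; its lowest log2 fold change is 3.5, and all 9 members called higher here at 3.5 or more are in it. In the authors' deposited table C1s1 had a log2 fold change of 7.26, C4b 6.97, Serping1 6.29 and C1ra 5.68, all over whole spleen. Masp1, C7 and C4a are in it as well (5.13, 4.31 and 3.52) and did not pass the count filter used here. Its remaining members, Colec11, C3, Colec12, Cfb and Clu, were all called higher here.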

How the data were processed

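RNA sequencing of 8 size-selected and 8 whole spleen samples gave a table of estimated counts per gene, deposited by the authors. The submitters' processing notes name Trim Galore, STAR, RSEM, DESeq and mm10 without saying in which order or with which settings, and whether counting used strand is not given in the sources used here. The authors' deposited table of enriched genes gives log2 fold changes with adjusted p-values. It also holds, per the file headers, a mean count signal over samples, a test score, and group means of TPM and FPKM, as deposited by the authors; only its fold changes are printed. The members and gene lists were chosen with earlier results of these data known.

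Whole spleen values have at most 2 decimals, as RSEM writes them. In each size-selected column, values of 3898 genes equal such a number multiplied by 1 or more of 3 constants of that column (in sample 407 these are 0.789, 0.858 and 0.931); the source of the constants is not stated, and they were found from the values. Dividing by them gives the restored counts, an alternative.

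Counts were rounded and tested with edgeR 4.0.16 in R 4.3.3 (filterByExpr with a minimum count of 10, TMM scaling, quasi-likelihood test, Benjamini-Hochberg adjustment over all tested genes, two-sided). Alternatives were RLE factors, library totals, 2 other filters, DESeq2 1.42.0, limma 3.58.1 (voom), the number as a block, sex as a covariate, restored counts, an absolute log2 fold change minimum of 1, leaving out each number and leaving out whole spleen sample 427; the block on restored counts was added after the data were seen. The SE of an edgeR fold change was derived from the test, as the absolute log2 fold change over the square root of the F statistic. The 95% intervals use this SE with a t quantile on the residual degrees of freedom. Same-numbered samples deviated together from their group means on average (mean r = 0.21, 0.12 to 0.38, over 8 pairs). For different numbers the mean was -0.03 (-0.33 to 0.23, over 56 combinations), so the ranges overlapped. Same-numbered samples also share their sex, so this does not by itself establish pairing, and samples were paired by the number in their labels. Tests were checked on simulated data. Lengths and overlaps come from GENCODE M21 and promoters from RefSeq, both on GRCm38 (mm10). A gene's length is that of all its annotated exons merged. Ratios, shares and orders per kilobase depend on it and may differ with other lengths. All 32 members are named; of other complement genes, those called whose mean log2 CPM reached 3, apart from any result not reported here, and for sex the 2 members with the smallest p. Where a library was at 0, 3 counts were taken as the limit, which covers counting error only.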

Additional observations from a re-analysis of the deposited data

Results flagged for a closer look

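In each preparation the 8 log2 CPM values of each of the 24 tested members were screened for a highest or lowest sample standing apart, 48 groups in all, of which chance flags about 1 in 20, or 2.4. There were 5 such groups, and in all 5 it was whole spleen sample 427 that was the highest. C1ra was at a log2 CPM of 3.38 there, against 0.71 to 1.80 in the other 7 whole spleens. C4b was at 4.34 against 0.04 to 1.98, and Serping1 at 4.41 against 0.65 to 2.39. C3 was at 6.41 against 4.47 to 5.38, and Cfb at 6.00 against 4.18 to 4.73. The fold changes of C4b, C1s1 and Serping1 without this sample stand beside their results.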

How the results depend on the processing

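Of the 24 tested members, 13 kept their direction and their call under every alternative run. Besides those named below, C6, Cfp, C1qa and Fcna lost their call under the log2 fold change minimum, and Colec11 did not pass the filter of a CPM of at least 1 in 8 samples. Members called higher numbered 13 where the log2 fold change also had to reach 1, 19 with library totals, 22 with no filter, and 15 to 19 when each number was left out, against 17. Of all genes, 7157 were called higher and 5136 lower with no filter. When each number was left out, 5194 to 5480 genes were called higher, against 5446. With the number as a replicate block 18 were called higher, C1qb being added (but not with the block on restored counts, where 17 were), and 2 lower; the block changed no other member's call. Members called lower fell from 2 to 1 with restored counts, with the replicate block on restored counts and with the log2 fold change minimum, Cr1l being lost each time. Other complement genes called numbered 17 with no filter, against 10. For sex in whole spleen, 3 members were called with DESeq2 and 3 with no filter, and 0 to 1 when a number was left out (Clu, without 427). C1qa lost its call without number 460 (edgeR adjusted p = 0.0570), and C1qc gained one with library totals and without number 435. The uncalled values near 0 changed sign: Cr2 was -0.0128 with no filter, -0.0117 with restored counts, -0.0197 with the replicate block on restored counts and from -0.0813 to 0.234 when a number was left out, Cd55 was -0.0372, -0.0291 and -0.0484 in those fits, -0.0121 without whole spleen sample 427 and from -0.0275 to 0.0777 when a number was left out, and C5ar1 ranged from -0.02 to 0.142. Library totals moved the median log2 fold change of all genes by 0.13 and gave 6041 higher and 3442 lower calls, against 5446 and 4409. The cause of these changes was not tested. Masp2, Hc and Cfi, at or near 0 in most samples, are below or close to what this depth can show.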
